A study of Mus musculus with 9 samples.

Results

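Glycolysis and hypoxia response genes were followed in mouse macrophages through a list of 36 genes, which holds glucose and lactate transporters, the enzymes of glycolysis, kinases that steer its flux, the oxygen sensor and further targets of the hypoxia-inducible factor (HIF). The genes were picked by symbol from the deposited array values. Of the 36, 34 had a probe set, out of 19505 genes named on the array, and each of the 34 had 1 probe set. Gpi1 and Eno1 had no entry under their symbols, and Ero1l was found under its current symbol, Ero1a. A gene was set aside as dim where its mean level was under 5.66 (log2), the midpoint of the probe sets when ranked by mean. This left 30 members among 10042 genes tested, and the dim members were Eno2, Egln3, Ddit4 and Adm.

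Macrophages were grown from the bone marrow of wildtype C57BL/6 mice for 7 days with 10% serum and macrophage colony-stimulating factor, at 10 ng/ml by the growth protocol and 20 ng/ml by the series text. All cells were then exposed to IL-4 at 20 ng/ml for 24 h, which drives the state called M2. The groups, with 3 arrays each, were vehicle, LCN2 (lipocalin 2, a secreted protein that binds bacterial iron carriers) added on day 7 at a dose not given in the sources used here, and recombinant LCN2 at 150 ng/ml from day 0. The labels name no group without IL-4 and none at low oxygen, so the arrays show how the genes varied within IL-4-treated cells and not a response to IL-4 or to hypoxia. The titles number the arrays of each group from 1 to 3, and the labels state neither what a number stands for nor whether separate mice or cultures were used. A p-value here is therefore set against the spread of these samples alone, and that spread may be technical.

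Glycolysis turns glucose into pyruvate, and lactate dehydrogenase and the lactate exporters carry the product out of the cell. HIF is degraded in the presence of oxygen because prolyl hydroxylases such as Egln1 mark its alpha subunit. When that mark is missing, HIF binds short hypoxia response elements and raises most glycolytic enzymes together with genes of blood vessel growth, mitophagy and pH control. Macrophages also raise this programme under inflammatory stimuli, whereas the IL-4 state is known for its reliance on mitochondrial respiration.

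The promoters of 6 members are shown because these genes carry the patterns described here. Vegfa, Pdk1, Slc16a3 and Pfkl differed most between arrays of different title number, Ldha was the steadiest member, and Hk2 had the smallest p-value between treatment groups in the fit without the title number. Each sequence is the stretch of 160 bases that ends just before a transcript start, the outermost one among the promoter windows at hand. It was taken from RefSeq on GRCm38.p6 and is written 5′ to 3′ on the strand of the gene. For Ldha, Slc16a3 and Pdk1 the annotated gene begins further upstream, at chr7:46842274, chr11:120948484 and chr2:71873215. Capitals mark the core letters of the hypoxia response element, ACGTG or GCGTG, on either strand. CACGTG, the E-box, reads as ACGTG on both strands and so gave overlapping matches.
Vegfa: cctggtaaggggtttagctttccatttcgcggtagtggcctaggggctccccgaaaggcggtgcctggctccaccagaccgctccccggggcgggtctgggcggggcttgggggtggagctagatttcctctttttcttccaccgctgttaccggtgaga
Pdk1: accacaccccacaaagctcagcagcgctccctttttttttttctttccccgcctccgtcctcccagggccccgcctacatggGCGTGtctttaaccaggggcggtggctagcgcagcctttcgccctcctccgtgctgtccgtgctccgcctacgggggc
Slc16a3: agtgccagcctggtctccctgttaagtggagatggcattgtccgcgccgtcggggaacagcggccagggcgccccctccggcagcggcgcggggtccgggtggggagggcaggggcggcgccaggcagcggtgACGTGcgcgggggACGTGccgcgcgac
Pfkl: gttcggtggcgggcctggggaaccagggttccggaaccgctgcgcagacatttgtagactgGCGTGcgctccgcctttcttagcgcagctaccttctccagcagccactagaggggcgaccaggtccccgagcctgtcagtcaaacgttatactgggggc
Ldha: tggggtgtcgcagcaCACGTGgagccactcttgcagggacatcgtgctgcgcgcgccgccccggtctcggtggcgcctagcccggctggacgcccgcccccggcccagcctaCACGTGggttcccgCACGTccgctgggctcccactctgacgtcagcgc
Hk2: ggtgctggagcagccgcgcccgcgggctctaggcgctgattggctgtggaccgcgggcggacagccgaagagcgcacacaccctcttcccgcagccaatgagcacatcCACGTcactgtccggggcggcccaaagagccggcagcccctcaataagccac

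These stretches lie at chr17:46032378-46032537 (minus strand, Vegfa), chr2:71873064-71873223 (plus strand, Pdk1), chr11:120948907-120949066 (plus strand, Slc16a3), chr10:78009808-78009967 (minus strand, Pfkl), chr7:46845644-46845803 (plus strand, Ldha) and chr6:82774455-82774614 (minus strand, Hk2). Ldha held 5 overlapping or separate matches, Slc16a3 held 2, at -27 and -14 from the start, and Vegfa held 0 in the stretch shown. A window of 300 bases (250 before the start and 50 after it) was at hand for 31 members, and 25 of them (80.6%) held a match at the outermost start. Vegfa, Hk1, Aldoa and Pkm held a match only at another start. At the outermost start the share was 63.8% of 8236 genes tested on the arrays. Over all starts it was 43.8% of 32851 promoter windows. Slc2a3, Bnip3l and Ndrg1 had no window in the table. By title number, the letters were at the outermost start of 2 of 3 members called higher, 7 of 9 called lower and 13 of 15 not called. A match is a description of the letters and does not show that HIF bound there.

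Array medians lay between 5.60 and 5.69. All 8 macrophage markers and all 8 IL-4-induced genes on the array were above the dim threshold. All 6 lymphoid markers on the array were dim, and so were 5 of 7 dendritic cell markers. Markers of other cells were above the threshold, with 8 of 11 for neutrophils and granules, 5 of 5 for monocytes and 5 of 6 for osteoclasts. For stromal and erythroid cells it was 2 of 6 and 1 of 3. The arrays numbered 1 stood apart in every group, on a principal component that took 62.5% of the variance. With 3333 of 10042 genes called, the background of that contrast was high, whereas for numbers 2 and 3 limma called 0 genes and found 310 at an unadjusted p under 0.05. Each group held 1 array of each number, so the title number was balanced over the treatments. Cells of several types can be mixed in such a culture, and in bulk RNA fewer cells of a type and less RNA per cell cannot be told apart.

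The treatment comparisons ask whether LCN2 altered these genes when it was given to finished macrophages or throughout their growth. No member passed in either case. The fit without the title number leaves the variation by title number in its error. It is therefore conservative for genes that differ by title number, and a gene that did not pass is not shown to be unchanged. With LCN2 on day 7, limma with Benjamini-Hochberg adjustment called 0 of 30 members against a background of 0% of 10042 genes, and at an unadjusted p under 0.05 it found 0 members and 70 genes (0.697%). With LCN2 from day 0 the background was again 0%, with 0 of 30 members called, and 1 member stood among 142 genes (1.41%) at an unadjusted p under 0.05. Between the LCN2 groups the counts were 0 of 30 members against 0% called, and 0 members among 177 genes (1.76%) at an unadjusted p under 0.05. With the title number as a block, limma again called 0 members and 0 genes in each comparison, and the unadjusted counts were 0 members of 259 genes (2.58%), 3 members of 497 (4.95%) and 1 member of 539 (5.37%), in the same order.

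Hk2, the hexokinase that HIF induces and that traps glucose in the cell, had the smallest p of any member in the fit without the block, and Slc2a3 had it in the fit with the block. Its log2 levels were 8.58, 8.45 and 8.55 with vehicle, 8.50, 8.13 and 8.28 with LCN2 on day 7, and 8.18, 8.33 and 8.08 with LCN2 from day 0 (title numbers 1, 2 and 3). The day 0 arrays all lay below the vehicle arrays, and the day 7 arrays overlapped with vehicle. Non-overlap of the day 0 and vehicle arrays was seen in 551 of 10042 genes (5.49%) and in 2 of 30 members, Hk2 and Bnip3. Day 7 and vehicle were apart in 318 genes (3.17%) and 0 of 30 members, with dim members not counted. The difference from vehicle was -0.33 ± 0.13 (SE, n = 3 per group) with LCN2 from day 0 (limma, adjusted p = 0.999, 95% interval -0.62 to -0.05), and it was -0.40, -0.12 and -0.47 within numbers 1, 2 and 3. With LCN2 on day 7 it was -0.22 ± 0.13 (95% interval -0.51 to 0.06). Without the arrays numbered 1, the values were -0.30 for both LCN2 groups.

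Slc2a3, a high-affinity glucose importer near the dim threshold, read 5.13, 5.72 and 6.05 with vehicle, 5.36, 5.96 and 6.28 with LCN2 on day 7, and 5.74, 6.33 and 6.08 with LCN2 from day 0. Within each number the LCN2 arrays were above the vehicle array, while the groups as a whole overlapped. The day 0 difference was 0.42 ± 0.29 (limma, adjusted p = 0.999), with 0.61, 0.61 and 0.03 within numbers 1, 2 and 3, and 0.32 without the arrays numbered 1. With the title number as a block its standard error was 0.14 and it still did not pass (adjusted p = 0.960).

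Pfkm, the muscle-type subunit of phosphofructokinase, differed by 0.24 ± 0.16 with LCN2 from day 0 (limma, adjusted p = 0.999), mostly through 1 array. Its levels were 5.79, 6.04 and 5.92 with vehicle, 5.88, 6.13 and 5.85 with LCN2 on day 7, and 5.88, 6.16 and 6.42 with LCN2 from day 0. Only the day 0 array numbered 3 was above all the others by more than the spread within vehicle (SD 0.13). Aldoc, an aldolase isoform best known from brain, read 6.42, 6.48 and 6.65 with vehicle, 5.75, 6.64 and 6.48 with LCN2 on day 7, and 6.56, 6.58 and 7.05 with LCN2 from day 0. Its difference between day 0 and day 7 was 0.44 ± 0.23 (limma, adjusted p = 1.00), and it rested partly on the low day 7 array numbered 1, since it was 0.25 without the arrays numbered 1.

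Bnip3, a mitochondrial receptor that directs mitochondria to autophagy, read 8.21, 8.27 and 8.25 with vehicle, 8.06, 7.77 and 8.34 with LCN2 on day 7, and 8.32, 8.30 and 8.31 with LCN2 from day 0. The day 0 arrays all lay above vehicle, but by only 0.07 ± 0.14 in the mean (limma, adjusted p = 0.999). The day 7 arrays were spread more widely (SD 0.28, against 0.03 with vehicle and 0.01 from day 0), so their difference of -0.19 ± 0.14 from vehicle lay within their own spread. Pfkp, the platelet-type phosphofructokinase subunit, read 10.32, 10.60 and 10.53 with vehicle, 10.23, 10.60 and 10.69 with LCN2 on day 7, and 10.17, 10.42 and 10.34 with LCN2 from day 0. Between day 0 and day 7 it differed by -0.20 ± 0.15, with a 95% interval from -0.53 to 0.14.

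Hif1a, the oxygen-regulated subunit of HIF, which is controlled mainly at the protein level, read 9.31, 9.64 and 9.79 with vehicle, 9.62, 9.40 and 9.89 with LCN2 on day 7, and 9.44, 9.88 and 9.75 with LCN2 from day 0. The groups overlapped, and the differences from vehicle were 0.05 ± 0.18 on day 7 and 0.10 ± 0.18 from day 0 (limma, adjusted p = 1.00 and 0.999). Gapdh, the glycolytic dehydrogenase often used as a reference gene, read 12.58, 12.72 and 12.63 with vehicle, 12.64, 12.58 and 12.72 with LCN2 on day 7, and 12.71, 12.83 and 12.63 with LCN2 from day 0. Its differences were 0.01 ± 0.11 and 0.08 ± 0.11, and the 95% intervals ran from -0.23 to 0.24 and from -0.16 to 0.32.

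As groups, the 14 enzymes tested had median differences from vehicle of 0.01 on day 7 and 0.01 from day 0, and the 7 other HIF targets of -0.02 and 0.07. Over all genes the medians were 0.00 and -0.01. Differences of 1 sign in all 3 title numbers were found for 4 members on day 7 (21.7% of all genes had them), 11 from day 0 (27.2%) and 3 between the LCN2 groups (20.9%). Of the HIF targets, Ndrg1, a stress-induced gene, differed from vehicle by 0.17 ± 0.23 on day 7 and 0.27 ± 0.23 from day 0, neither of which passed (limma, adjusted p = 1.00 and 0.999). With the number as a block the standard error of Ndrg1 was 0.10 and it did not pass from day 0 either (adjusted p = 0.960). The intervals given are those of the fit without the block, and they are wider where a gene differed by title number. For Ldha, the enzyme that makes lactate, the 95% interval of the day 0 difference ran from -0.22 to 0.21, whereas for Vegfa, the blood vessel growth factor, it ran from -1.47 to 1.48. Within each group Vegfa differed by title number, and its standard error was 0.65, or 0.18 with the number as a block.

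Marker genes of other cells and of proliferation also lay above or below vehicle without passing, and only some of the lists are named here. Neutrophil and granule genes (8 of 11 on the array tested) were above vehicle in all 8 cases in both LCN2 groups, with medians of 0.43 and 0.43. Within numbers 1, 2 and 3 these medians were 1.04, -0.07 and 0.33 on day 7, and 0.43, 0.36 and 0.42 from day 0. The 5 osteoclast genes tested were below vehicle from day 0, with a median of -0.77. On day 7, 4 were below and 1 was above, with a median of -0.10. Proliferation genes were above vehicle in 16 of 19 on day 7 and in 12 of 19 from day 0 (medians 0.15 and 0.07). The part of these marker genes in the differences of the members was not tested.

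**Figure D1:**
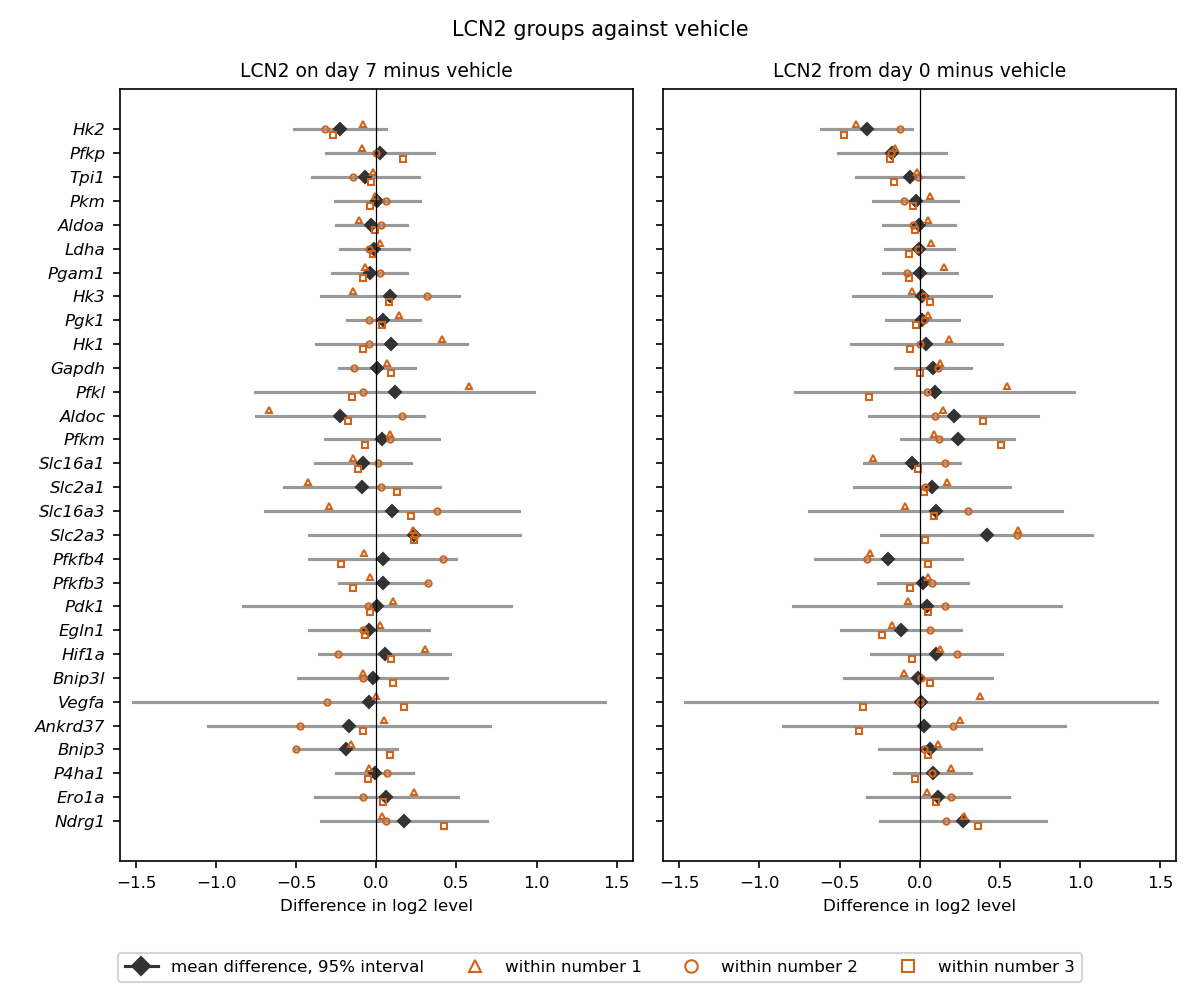
Difference in log2 level of each tested member between LCN2 on day 7 and vehicle (left) and between LCN2 from day 0 and vehicle (right). Diamonds are mean differences of 3 against 3 arrays with 95% intervals, and open symbols are the differences within title numbers 1, 2 and 3. The intervals are those of the fit without the title number as a block. In that fit every interval apart from that of Hk2 in the right panel spans 0, and that of Vegfa is the widest.

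Between title numbers the members did differ. Against the mean of numbers 2 and 3, 15 of 30 members (50.0%) were called on the arrays numbered 1, beside 33.2% of all genes tested (16 members and 45.0% of genes at an unadjusted p under 0.05). In this contrast 5 members were higher (16.7%, background 11.0%) and 10 were lower (33.3%, background 22.1%). The lowest were the pyruvate dehydrogenase kinase Pdk1, the phosphofructokinase subunit Pfkl, the lactate exporter Slc16a3, the HIF target Ankrd37 and the glucose importer Slc2a3, between 1.59-fold and 1.89-fold lower. Vegfa stood at the other end, 3.14-fold higher. That the arrays numbered 1 stand apart was known when the genes and this contrast were chosen. The p-values of this contrast are therefore no test of whether those arrays stand apart.

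Among the glucose and lactate carriers, 3 of 4 were called (background 33.2%), 1 higher and 2 lower (backgrounds 11.0% and 22.1%). Slc16a3, which exports lactate from highly glycolytic cells, read 8.15, 7.86 and 8.06 on the arrays numbered 1 (vehicle, day 7, day 0) and between 8.63 and 9.01 on the others. These ranges did not overlap, as in 14 of 30 members (46.7%, background 35.4%). The difference was -0.85 ± 0.11 (SE, 3 against 6 arrays; limma, adjusted p = 0.00127), and it was -0.56, -1.15 and -0.84 within vehicle, day 7 and day 0.

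Its relative Slc16a1, which moves lactate and pyruvate in either direction, differed by -0.08 ± 0.09 (adjusted p = 0.512). The glucose importers moved apart. Slc2a3 was 5.13, 5.36 and 5.74 on the arrays numbered 1 against 5.72 to 6.33 on the others, a difference of -0.67 ± 0.12 (limma, adjusted p = 0.00414). Slc2a1, the basal glucose importer, was 11.55, 11.13 and 11.72 against 10.97 to 11.20, a difference of 0.41 ± 0.12 (limma, adjusted p = 0.0317). Slc2a1 was high in vehicle and day 0, while the day 7 array numbered 1 lay inside the range of the others (0.53, 0.03 and 0.67 within vehicle, day 7 and day 0).

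Of the 14 enzymes tested, 5 were called (35.7%), 1 higher and 4 lower, a share near the background of 33.2%. Pfkl, the liver-type subunit of phosphofructokinase, the committed step, read 6.83, 7.41 and 7.38 on the arrays numbered 1 and 7.87 to 8.40 on the others. The difference was -0.88 ± 0.14 (limma, adjusted p = 0.00272), with -1.34, -0.64 and -0.66 within vehicle, day 7 and day 0. Pfkp differed by -0.29 ± 0.08 (adjusted p = 0.0276), and Pfkm was not called (-0.24 ± 0.11, adjusted p = 0.125).

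The hexokinases split by isoform. Hk1, the widely expressed isoform that sits on mitochondria, read 8.71, 9.12 and 8.90 on the arrays numbered 1 against 9.29 to 9.41, a difference of -0.45 ± 0.10 (limma, adjusted p = 0.00981). Hk3, the isoform of myeloid cells, read 9.51, 9.37 and 9.46 against 8.97 to 9.29, a difference of 0.40 ± 0.09 (adjusted p = 0.0136). The arrays numbered 1 lay apart from the others for both genes, while for Hk2 they overlapped (0.12 ± 0.10, adjusted p = 0.391). Tpi1, the triose phosphate isomerase, read 10.48, 10.46 and 10.46 against 10.65 to 10.83, a difference of -0.29 ± 0.08 (adjusted p = 0.0237).

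None of the remaining enzymes was called. Gapdh differed by -0.05 ± 0.08 (limma, adjusted p = 0.709), Pgk1 by -0.09, Pgam1 by 0.01, Ldha by -0.04 and the aldolase Aldoa by 0.05. Pkm, the pyruvate kinase of macrophages, was not called at -0.17 ± 0.08 (adjusted p = 0.115), although its arrays numbered 1 (12.21 to 12.28) lay below all others (12.32 to 12.48). Aldoc differed by -0.40 ± 0.15 without passing (adjusted p = 0.0667).

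Of the kinases that steer flux, Pdk1 was called, and the pair Pfkfb3 and Pfkfb4, which make and degrade the activator of phosphofructokinase, was not (0.12 ± 0.10 and 0.19 ± 0.15). Pdk1 shuts pyruvate dehydrogenase and so keeps pyruvate from the mitochondria. It read 7.60, 7.70 and 7.52 on the arrays numbered 1 and 8.36 to 8.65 on the others. The difference was -0.92 ± 0.09, 1.89-fold lower (limma, adjusted p = 0.000282), and was -0.91, -0.76 and -1.08 within vehicle, day 7 and day 0. No array lay between 7.70 and 8.36.

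In the oxygen sensor, Egln1, the main HIF prolyl hydroxylase and itself a HIF target, read 8.57, 8.60 and 8.40 on the arrays numbered 1 and 8.70 to 9.01 on the others. The difference was -0.32 ± 0.09 (limma, adjusted p = 0.0257). Hif1a was not called, at -0.27 ± 0.12 (adjusted p = 0.122), and its ranges overlapped, with 9.31 to 9.62 on the arrays numbered 1 and 9.40 to 9.89 on the others.

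The other HIF targets split in direction, with 5 of 7 called (71.4%, background 33.2%), 3 higher and 2 lower. Vegfa read 9.14, 9.14 and 9.52 on the arrays numbered 1 and 7.28 to 7.81 on the others, so no array lay between 7.81 and 9.14. The difference was 1.65 ± 0.15 (limma, adjusted p = 0.000278), and was 1.44, 1.51 and 2.00 within vehicle, day 7 and day 0. Bnip3l, a mitophagy receptor like Bnip3, read 10.47, 10.39 and 10.37 against 9.86 to 10.00 and was higher by 0.48 ± 0.08 (adjusted p = 0.00279), while Bnip3 itself differed by -0.01 ± 0.11.

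Ndrg1 read between 7.96 and 8.24 against 7.38 to 7.90 and was higher by 0.47 ± 0.09 (limma, adjusted p = 0.00581). Ankrd37, a small ankyrin protein induced by HIF, went the other way. It read 6.12, 6.17 and 6.37 against 6.40 to 7.43, a difference of -0.81 ± 0.15 (adjusted p = 0.00505). Ero1a, which oxidises disulphides in the endoplasmic reticulum, differed by -0.40 ± 0.09 (adjusted p = 0.0127), and P4ha1, a collagen prolyl hydroxylase, was not called (-0.11 ± 0.08).

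Set side by side, the enzymes and the other HIF targets had medians near each other (-0.13 and -0.01, all genes -0.06) but unlike spreads. The median size of the difference, without its sign, was 0.21 for enzymes, 0.47 for other HIF targets and 0.21 for all genes tested. In the larger lists of related genes described below, the order was the reverse. There it was 0.39 for the 22 tested genes of glucose and pyruvate use and 0.29 for the 22 further HIF targets tested. No test of one class against the other was made. The direction of Vegfa, Bnip3l and Ndrg1 on one side and of Ankrd37 and Ero1a on the other was the same under quantile normalization and with each array centred on its median. These scalings moved the balance over all genes, since 33.3% of called genes were higher as deposited, 47.3% after quantile normalization and 28.7% after centring, and the members' counts were 5 higher with 8 lower and 5 higher with 10 lower.

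**Figure D2:**
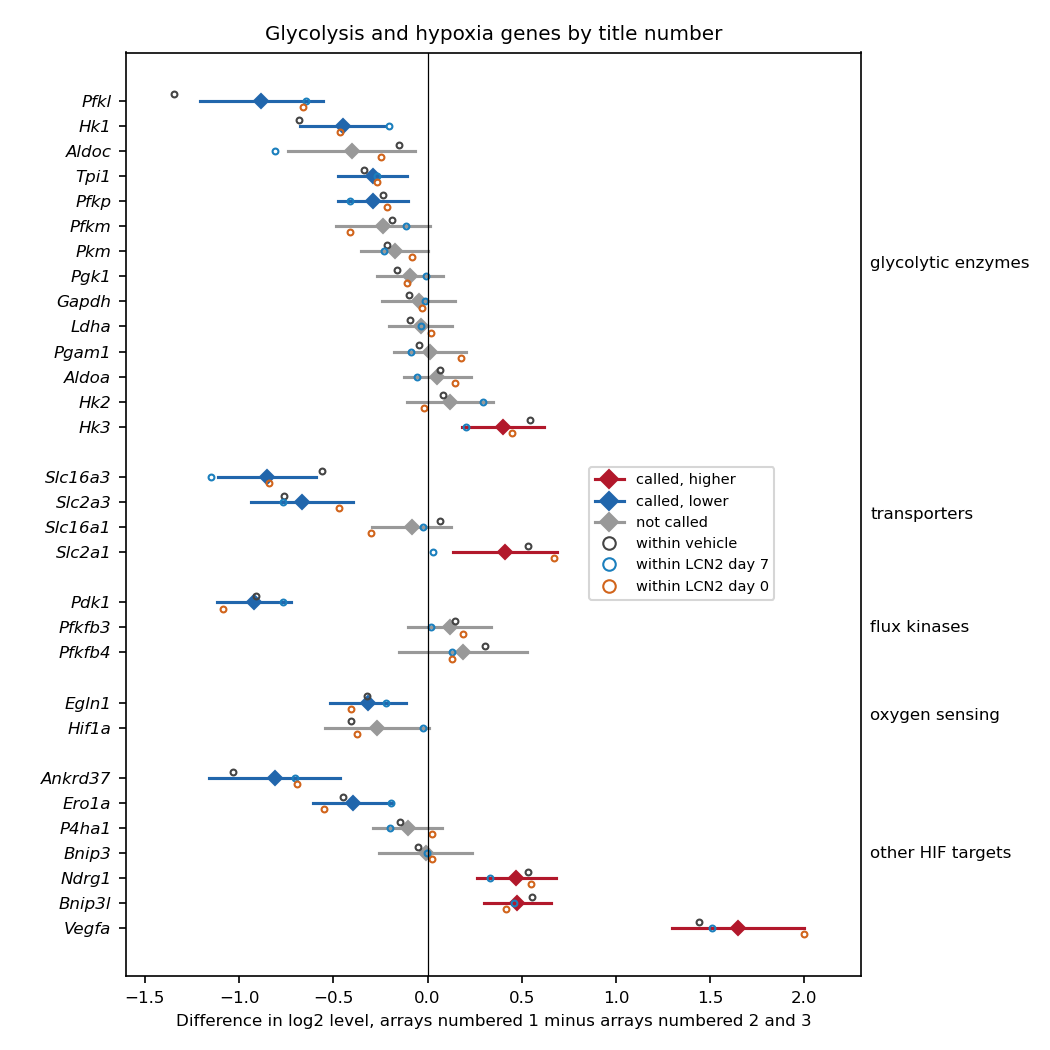
Difference in log2 level between the arrays numbered 1 and the mean of those numbered 2 and 3, for 30 members ordered by role. Diamonds are differences from the fit with 95% intervals, coloured where called, and open circles are the differences within vehicle, LCN2 on day 7 and LCN2 from day 0. Vegfa lies at 1.65 and Pdk1, Pfkl, Slc16a3 and Ankrd37 lie at -0.81 or below, while enzymes from Gapdh to Aldoa lie near 0.

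**Figure D3:**
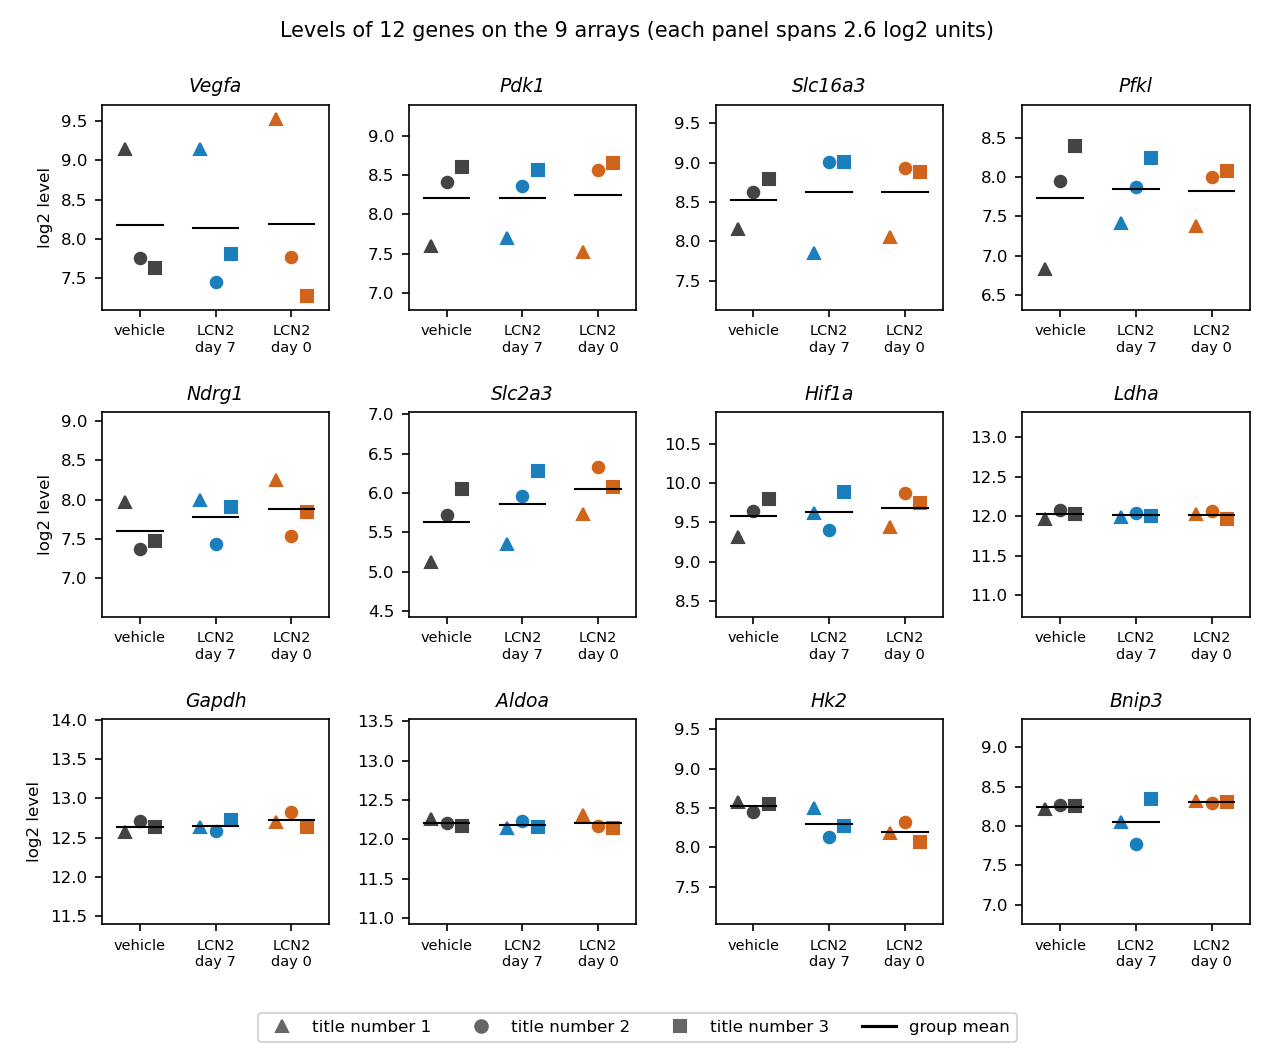
Log2 level of 12 members on each of 9 arrays, by treatment group (horizontal) and title number (symbol), with the group mean as a line. Every panel spans 2.6 log2 units. Triangles (number 1) lie above the other symbols for Vegfa and below them for Pdk1, Slc16a3 and Pfkl, while the symbols for Ldha, Gapdh and Aldoa lie almost on a line.

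Several gene groups that are not members moved with the title number as well. The counts are of called genes, and over all genes tested 11.0% were called higher and 22.1% lower. Proliferation genes were lower on the arrays numbered 1 in 17 of 19 cases (median -0.90), with mean list levels of 8.16 to 8.74 there and 9.12 to 9.44 on the others. Neutrophil and granule genes were lower in 7 of 8 tested (median -1.50, 5.78 to 6.49 against 7.14 to 7.63), while Ctsg, Camp and Retnlg were dim. Monocyte genes were lower in 3 of 5 and higher in 1 (7.27 to 7.69 against 7.92 to 8.31). The higher one was Chil3, which is also counted among the IL-4-induced genes. Of the dendritic cell markers 2 were tested, Itgax and Ccr7, and 2 were higher. Osteoclast genes were higher in 3 of 5 tested and lower in 1 (median 1.97, 7.84 to 8.52 against 6.78 to 7.55), with Calcr dim. Macrophage markers were higher in 3 of 8 and lower in 1 (10.60 to 10.70 against 10.36 to 10.53), and IL-4-induced genes likewise (10.50 to 10.81 against 10.13 to 10.35). The part of these cells, of cell division and of the title number itself in the members' differences was not tested.

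Leaving out arrays changed how many members were called. The count was 8 without the vehicle array numbered 1 and 8 without the day 0 array numbered 1 (backgrounds 17.7% and 19.1%), and it was 4 without the vehicle group and 9 without the day 0 group (8.14% and 24.2%). Vegfa, Pdk1, Slc16a3 and Pfkl were called under all 20 alternatives tried, Bnip3l and Ndrg1 under 19, Slc2a1 and Egln1 under 11, and Tpi1 and Pfkp under 9 and 8. Without the filter on dim genes these last 4 did not pass (adjusted p from 0.0616 to 0.0754). All 15 called members kept their direction throughout.

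Between numbers 2 and 3 limma called 0 of 30 members and 0% of genes, with 2 members among 310 genes (3.09%) at an unadjusted p under 0.05. They were Ankrd37 at -0.49 ± 0.17 and Ndrg1 at -0.29 ± 0.10. Hif1a differed by -0.17 and did not pass.

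The members that varied least were mostly enzymes of the lower pathway. Over all 9 arrays the difference between the highest and the lowest log2 level was 0.12 for Ldha (11.96 to 12.08), 0.16 for Aldoa (12.14 to 12.31), 0.19 for Pgk1, which makes ATP in the payoff phase, and 0.22 for Pgam1, the phosphoglycerate mutase. It was 0.24 for P4ha1, 0.26 for Gapdh and 0.27 for Pkm. These are the 7 of 30 members (23.3%) with a range under 0.3, a limit chosen after the values were seen, and 918 of 10042 genes (9.14%) had such a range. The share rises with brightness, so it was also taken among genes with a mean of 10 or more, where it was 6 of 10 members (60.0%) and 329 of 1180 genes (27.9%). Within that set brightness was not matched, and Ldha, Aldoa, Pkm and Gapdh had means of 12.02, 12.20, 12.36 and 12.67. At the other end, the range was 2.24 for Vegfa, 1.57 for Pfkl and 1.31 for Ankrd37.

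**Figure D4:**
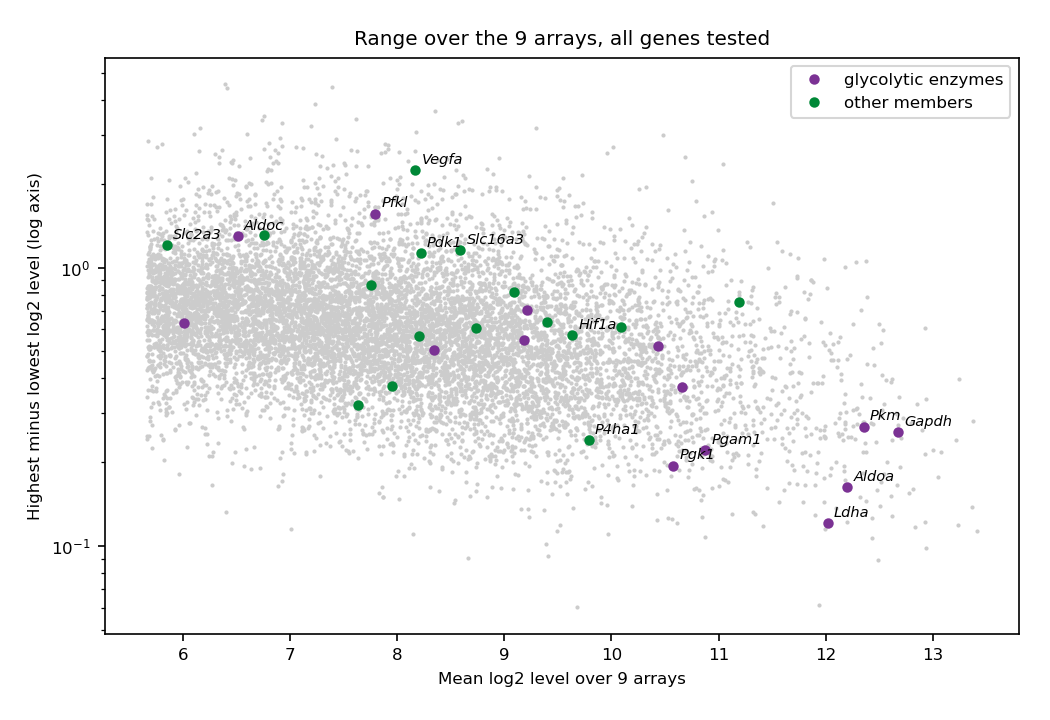
Range over 9 arrays (highest minus lowest log2 level, log axis) against the mean log2 level for all 10042 genes tested, with enzymes in purple and other members in green. The mean depends on the probe set and serves to show how the range falls with brightness, not to rank genes. Ldha, Aldoa, Pgk1 and Pgam1 lie near the lower edge of the cloud, and Vegfa and Pfkl near its upper edge.

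The dim members have levels that may be mostly background and were not tested. Eno2, the neuronal enolase, read 4.74, 4.71 and 4.88 with vehicle, 5.47, 5.40 and 5.01 with LCN2 on day 7, and 5.14, 4.72 and 5.38 with LCN2 from day 0, so that the day 7 arrays lay above vehicle. Egln3, a prolyl hydroxylase strongly induced by HIF, read 4.98, 5.17 and 5.23, then 4.85, 5.97 and 6.17, then 5.33, 5.48 and 6.07 in the same order. Its day 0 arrays lay above vehicle. Non-overlap was counted above only among the genes tested, so no share is set beside that of Eno2 and Egln3. Between title numbers Egln3 differed by -0.63 (limma without the filter, adjusted p = 0.0448). Ddit4, an inhibitor of mTOR signalling, ranged from 4.33 to 5.41 and Adm, the vasodilator adrenomedullin, from 3.46 to 4.20, with overlapping groups.

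Related genes that are not members were grouped in 4 further lists, also drawn up with earlier results known. None of their genes was called in an LCN2 comparison. Between title numbers, other genes of glucose and pyruvate use had 13 of 22 tested called, 4 higher and 9 lower (median -0.24). Pdp1, the phosphatase that reverses the action of Pdk1 on pyruvate dehydrogenase, differed by -1.05 (limma, adjusted p = 0.000279), and Ldhb, the lactate dehydrogenase subunit of the heart type, was higher by 0.90 (adjusted p = 0.000492). Further HIF targets had 5 higher and 7 lower of 22 tested (median -0.07). Angptl4, an inhibitor of lipoprotein lipase, was 1.78 higher (adjusted p = 5.46e-05) and the transferrin receptor Tfrc 1.11 higher (adjusted p = 0.000609). The machinery that builds and degrades HIF had 1 of 9 called, the ubiquitin ligase scaffold Cul2 at -0.31 (adjusted p = 0.0373), and the pentose phosphate pathway had 2 of 5 called, both lower, among them the epimerase Rpe at -0.36 (adjusted p = 0.0183). Beside the 33.2% called over all genes tested, the shares were 59.1% for glucose and pyruvate use, 54.5% for further HIF targets, 11.1% for the HIF machinery and 40.0% for the pentose phosphate pathway.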

How the data were processed

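The deposited table holds log2 levels of 22203 probe sets, which the authors made with the R package oligo and RMA, per the submitters' processing notes (versions and build not given in the sources used here). The values were used as deposited, with 0 missing. Of the probe sets, 19572 carried 1 gene symbol, 0 several and 2631 none. For 55 genes with more than 1 probe set the one with the highest mean was kept. Arrays carry no counts, so their number limits the precision.

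Tests used limma 3.58.1 (R 4.3.3) over all 9 arrays, with 1 mean per group and moderated variances without trend. Title numbers were compared in a fit with group and number. P-values were two-sided and adjusted by Benjamini-Hochberg over all 10042 genes, with a threshold of 0.05. The fits were tried on simulated data. For the treatment fit these held the noise of a fit with group and number, and no difference by title number. They therefore do not show how well that fit recovers changes on these arrays. Array values were to be given for Hif1a, Gapdh, the 3 members of smallest p in each treatment comparison and up to 4 called members of largest difference per role class by title number; other members were added after their values were seen. The members and lists were chosen with earlier results of these data known.

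Arrays of equal title number deviated together from their group means (9 correlations, 0.16 to 0.82). Arrays numbered 2 and 3 of different groups correlated in a similar range (0.20 to 0.69). The difference between numbers 2 and 3 correlated between groups at -0.39 to 0.29. These correlations therefore do not show that each number pairs its arrays. The treatment results given are those of the fit without the number, and the fit with the number as a block is an alternative. The former is conservative for genes that differ by title number. Alternatives covered the filter, probe-set choice, scaling, variance model, array weights, the block and left-out arrays or groups.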

Additional observations from a re-analysis of the deposited data

How the results depend on the processing

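No alternative called a member in any LCN2 comparison (20 tried for each), and the replicate block, fixed or random, left each count at 0 and changed no call. Between title numbers the count of 15 was within 1.5-fold under 16 of 20 alternatives. It was 4 without the vehicle group and 9 without the LCN2_d0 group, and it ranged from 8 to 16 when each array was left out in turn. Fewer arrays were in these fits. Without the dim filter 12 of 34 members were called, with Slc2a1, Egln1, Tpi1 and Pfkp lost and Egln3 gained, and 13 of 26 with the stricter one. The share of all genes called also changed with the setting. It is given above for the fits without the vehicle or the day 0 group. It is not set beside the other counts here, so those cannot be compared with all genes. The counts show how the calls depend on the setting and nothing about the members as a group.

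Small differences that were never called changed sign. For Gapdh on day 7 against vehicle the value was -0.0029 after quantile normalization, -0.060 with array weights and -0.023 without the 3 arrays numbered 1, and Hif1a gave -0.016 with array weights and -0.075 without the arrays numbered 1. Leaving out each array, Gapdh on day 7 ranged from -0.032 to 0.044, Hif1a on day 7 from -0.082 to 0.17, Aldoc on day 7 from -0.40 to 0.042, Hif1a from day 0 against vehicle from -0.031 to 0.23 and Hif1a between the LCN2 groups from -0.066 to 0.18. Between numbers 2 and 3, Hif1a ranged from -0.31 to 0.0099 and Gapdh from -0.014 to 0.13, with -0.029 for Gapdh without the LCN2_d0 group. The cause was not tested. The estimation of array weights stopped before convergence. The number of arrays limits the precision, and the 95% intervals given are from the fit without the block, whose standard errors were larger for genes that differ by title number (Vegfa 0.65 against 0.18, Pdk1 0.37 against 0.099).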
